A study of Homo sapiens with 4 samples.

Results

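The transcriptomes of 2 human lung cancer cell lines, H1299 and A549, were set against each other over all 4 arrays of the series, 2 arrays of each line. A549 is a lung adenocarcinoma line. H1299 was established from the lymph node metastasis of a non-small cell lung carcinoma. From each line came 1 array of parent cells given vehicle, called the control, and 1 array of cells given siRNA against TET1, called the knockdown. The control was thus vehicle and not another siRNA, and each line had 1 control and 1 knockdown array. The labels do not say whether the 2 arrays of a line came from separate cultures. The p-values rest on a spread modelled over all tested probes of these 4 arrays. They measure neither a gene's own spread nor the spread between cultures. All 4 arrays of the series were used. A probe was tested if its detection p-value was under 0.01 on at least 2 of the 4 arrays, which 17002 of 47321 probes on the Illumina bead array met. These probes stood for 12973 genes, each read from its tested probe of highest mean signal.

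Cell lines from 1 organ can keep different lineage programmes in culture. Cancer-testis genes are normally expressed in male germ cells and silenced by DNA methylation elsewhere, and some tumours express them again. The transcription factor NRF2 switches on genes for detoxification and glutathione supply and is kept low by KEAP1, a gene known to be mutated in A549. A549 is also known to lack the CDKN2A region.

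Before the results, the arrays themselves need description. Detected probes numbered 13980 on the A549 control array, 17107 on the A549 knockdown, 16883 on the H1299 control and 14417 on the H1299 knockdown. The A549 control and H1299 knockdown arrays thus had fewer detected probes than the others. These 2 arrays also differed together from the other 2, with an SD over tested probes of 1.01 on the log2 scale for that contrast, against 1.27 for the line difference and 0.40 for the knockdown difference. That contrast takes 1 array from each line and each treatment, so it is balanced over the lines. It also measures the difference between the lines in their knockdown change. A knockdown response that differs between the lines and a difference between arrays cannot be told apart in it. The same contrast is the residual, which was smoothed over all tested probes by signal before line differences were tested against it. Its cause was not tested. Over tested probes the normalized signals of the A549 arrays correlated at 0.92 and those of the H1299 arrays at 0.87, and pairs of different lines at 0.75 to 0.85. The knockdown target TET1 had a normalized log2 signal of 7.18 and 5.19 on the control and knockdown arrays of A549. On those of H1299 it read 6.83 and 5.90. This probe was below detection on both knockdown arrays. The other TET1 probe was detected on the H1299 control array alone and was not tested. TET1 did not pass the test between the lines (log2 difference 0.18 ± 1.0, SE). No tested marker of another cell type was called. Of 15 leukocyte genes 4 were tested and 0 called, and their summed raw signal was 7633, 8578, 7774 and 17701 in the order above, the last array being the highest. CD68, a lysosomal protein of macrophages, read 11.14, 10.87, 11.44 and 13.19 on the log2 scale in the same order. CD14, a surface receptor of monocytes, read 9.32 on both A549 arrays against 5.57 and 6.70 in H1299, which was over 2-fold apart but not called (limma adjusted p = 0.0904). The part of these markers in the results was not tested. Of 16 genes of endothelium, fibroblasts and erythroid cells 1 was tested and 0 called, and their sums lay between 3303 and 3646. In RNA of bulk cultures, fewer cells expressing a gene and less RNA per cell cannot be told apart.

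Promoters of example GAGE genes and NRF2 targets are shown first, from RefSeq on GRCh38.p14. Each runs from 250 bases before to 50 bases after the annotated start, 5′ to 3′ on the gene's strand. GAGE12C is shown because it had the largest difference between the lines, and GAGE10 because it was the member of the same family that did not pass the test. Capitals mark the dinucleotide CG, the site of DNA methylation, which is the same on both strands.
GAGE12C, chrX:49531927-49532226, plus strand: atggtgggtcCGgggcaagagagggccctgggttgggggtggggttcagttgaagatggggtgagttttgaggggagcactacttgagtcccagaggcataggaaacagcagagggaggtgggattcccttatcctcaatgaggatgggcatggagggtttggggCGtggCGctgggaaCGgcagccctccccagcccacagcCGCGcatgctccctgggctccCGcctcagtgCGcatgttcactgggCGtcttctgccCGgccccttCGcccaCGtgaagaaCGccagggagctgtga
GAGE10, chrX:49303396-49303695, plus strand: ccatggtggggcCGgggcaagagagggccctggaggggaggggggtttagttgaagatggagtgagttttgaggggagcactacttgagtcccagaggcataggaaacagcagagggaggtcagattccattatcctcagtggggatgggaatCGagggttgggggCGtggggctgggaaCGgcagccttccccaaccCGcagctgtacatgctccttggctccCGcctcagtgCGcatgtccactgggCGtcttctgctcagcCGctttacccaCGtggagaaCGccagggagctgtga
The GAGE12C window holds 13 CG dinucleotides and the GAGE10 window 11, beside a median of 14 over 35116 promoters, of which 51.7% hold at least 13. All 9 other called GAGE genes with a promoter entry were at least 99.6% identical to GAGE12C there. GAGE10 was 89.9% identical, with 30 differing bases among 298 compared.

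GPX2, a glutathione peroxidase, and ME1, malic enzyme, are shown as examples of NRF2 targets higher in A549 that hold the motif marked in capitals. AKR1C2, AKR1C3, AKR1C4, AKR1B1, NQO1 and ABCC2 were also called and do not hold it. Capitals mark the core of the antioxidant response element, TGACNNNGC, searched on both strands.
GPX2, chr14:64942696-64942995, minus strand: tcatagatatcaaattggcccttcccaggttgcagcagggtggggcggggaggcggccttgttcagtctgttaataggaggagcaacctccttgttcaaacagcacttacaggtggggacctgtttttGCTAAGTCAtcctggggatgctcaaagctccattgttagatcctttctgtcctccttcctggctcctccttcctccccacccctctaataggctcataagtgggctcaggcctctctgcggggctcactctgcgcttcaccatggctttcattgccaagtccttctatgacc
ME1, chr6:83431002-83431301, minus strand: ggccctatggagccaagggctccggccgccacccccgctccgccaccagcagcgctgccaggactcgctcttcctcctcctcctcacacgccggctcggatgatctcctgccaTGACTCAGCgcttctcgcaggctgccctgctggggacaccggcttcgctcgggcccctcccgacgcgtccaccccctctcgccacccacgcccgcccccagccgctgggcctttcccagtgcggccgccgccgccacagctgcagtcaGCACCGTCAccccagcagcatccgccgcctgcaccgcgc
Of all promoters 13.3% hold this motif, and 16.1% of genes hold it in any of their promoters. Of 27 tested NRF2 targets with a promoter entry, 9 had it in any promoter. Among the 13 of these that were called 4 had it. A match is a description of the letters and not a binding site.

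The lines differed at 540 genes (4.16% of 12973), of which 175 were higher in H1299 (1.35%) and 365 higher in A549 (2.81%). The call was a limma adjusted p under 0.05, Benjamini-Hochberg over all tested probes, two-sided. At the level of probes 651 were called (3.83%), 218 higher in H1299 (1.28%) and 433 in A549 (2.55%). The median fold between line means was 11 among genes higher in H1299 and 11.4 among those higher in A549, with an undetected array held at the lowest level detected on it. Detection was split by line for many called genes: 118 of those higher in H1299 were detected on both H1299 arrays and neither A549 array, and 190 of those higher in A549 showed the reverse. Such genes could enter the test only through the line in which they were high, so their folds are lower bounds and are written as at least N-fold.

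A wider description without a test counted genes whose lowest array in one line lay at least 2-fold above the highest in the other. By this rule 1263 genes separated the lines (9.74% of those tested), 514 higher in H1299 (3.96%) and 749 higher in A549 (5.77%). Of the called genes 168 and 350 were among them, respectively. The arrays of the lines did not overlap, at any distance, for 45.7% of tested genes. Every one of the 540 called genes kept its sign with the deposited lumi values, without background correction and with median centring. The other alternatives on all 4 arrays used the same normalized values, so a probe's difference could not change sign there. The number called was less stable, between 27 with arrays centred on their medians and 669 with no detection filter. Of the called genes that the naming rule covers, 69 lost the call with median centring and 26 with the deposited lumi values. Among the 26 were CDH1, EPCAM, CLDN2, FGA, FGG, FOXQ1, HLA-B, HOXA9, IFIH1, LEF1 and SFRP1.

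**Figure D1:**
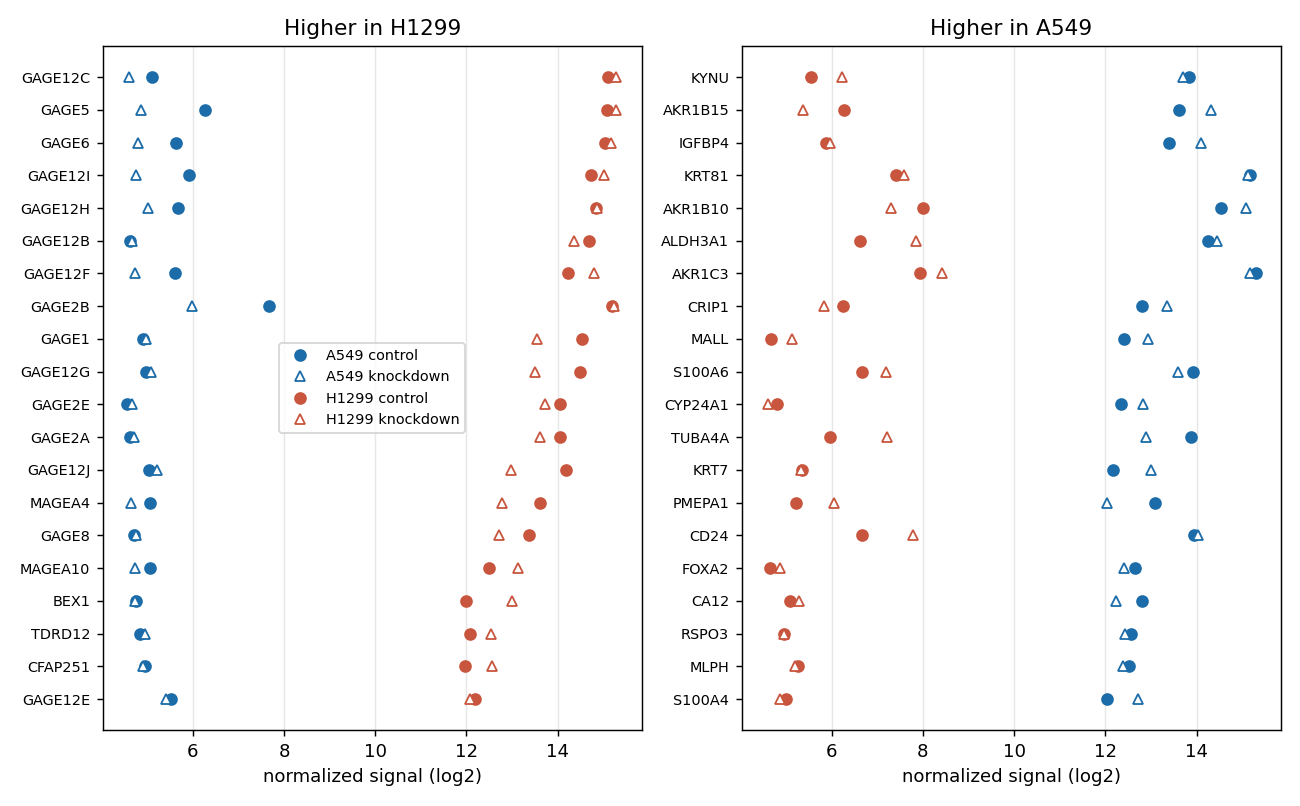
Normalized log2 signal (horizontal axis) on each of the 4 arrays for the 20 named genes with the largest difference in each direction, 1 gene a row, filled circles for controls and open triangles for knockdowns, A549 in blue and H1299 in red. In each row both arrays of one line lie far from both of the other, as for GAGE12C at 5.10 and 4.61 in A549 and 15.10 and 15.27 in H1299.

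Cancer-testis genes made up most of the largest differences towards H1299. Of 32 tested members of the list 23 were higher in H1299 and 0 in A549, and the list's median log2 difference was 6.42, beside 0.04 over all tested genes. With no detection filter, which adds members low in both lines, the list's median was 0.39. Of the 32, 22 passed the filter through H1299 alone and 2 through A549 alone. The families GAGE, MAGEA, CSAG and CT45 each had called members. Many of these were GAGE genes, near-identical copies whose probes may share signal, so the count and the median partly repeat the same signal. The choice of the list was made with earlier results of these arrays known.

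The GAGE genes encode small acidic antigens from a tandem array on the X chromosome. GAGE12C had a normalized log2 signal of 5.10 and 4.61 on the A549 control and knockdown arrays and of 15.10 and 15.27 on the H1299 arrays. The A549 values were below detection and the H1299 values close to the top of the scale. Its log2 difference was 10.33 ± 0.80 (SE), at least 652-fold (limma adjusted p = 1.23e-33). Of 18 tested GAGE genes 17 were called, all higher in H1299. Among those in the plot of the largest differences, the fold ran from at least 78.6 for GAGE12E to at least 652 for GAGE12C. GAGE2B read 7.68 and 5.99 in A549 against 15.20 and 15.24 in H1299. GAGE10, named after its values were seen, reached 7.35 and 6.18 in H1299 against 5.06 and 4.79 in A549, a log2 difference of 1.84 ± 0.91 that did not pass (limma adjusted p = 0.442). GAGE10 was detected on both H1299 arrays and neither A549 array. GAGE transcripts are near-identical, so a probe may read several copies and the count of separate GAGE genes is uncertain.

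The MAGEA genes, which encode partners of ubiquitin ligases, followed. MAGEA4 read 5.06 and 4.65 in A549 and 13.61 and 12.77 in H1299, at least 164-fold higher (limma adjusted p = 8.17e-16). MAGEA10 read 5.06 and 4.72 against 12.49 and 13.13, at least 126-fold higher. In both genes the A549 arrays were undetected and the H1299 arrays overlapped none of them. MAGEA1 (log2 difference 6.84 ± 1.06), MAGEA12 (6.12 ± 0.98) and MAGEA6 (4.29 ± 1.04) were also called. MAGEA3, at 5.02 and 5.14 in A549 and 9.13 and 7.34 in H1299, was not (limma adjusted p = 0.0736). PRAME, a cancer-testis gene outside these families, was detected in both lines at 10.37 to 11.43 and was not called. LIN28B, an RNA-binding protein that blocks maturation of let-7 microRNAs, rose from 8.77 and 8.80 in A549 to 12.36 and 12.43 in H1299, a 12.2-fold difference (limma adjusted p = 8.10e-05).

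Other genes with germ-cell roles appeared among the calls outside the list. TDRD12, a Tudor-domain protein of the piRNA pathway, read 4.85 and 4.94 in A549 and 12.07 and 12.53 in H1299, at least 88.4-fold higher. Its second tested probe differed by 0.69 and was not called. GTSF1, another piRNA factor, read 4.94 and 5.04 against 11.72 and 12.44. TDRD9, a helicase of the same pathway, read 4.98 and 4.77 against 10.28 and 10.86. SYCP2 and SYCE1, parts of the synaptonemal complex that pairs chromosomes in meiosis, differed by 4.13 ± 1.13 and 3.52 ± 1.06 on the log2 scale. SOHLH2, a germ-cell transcription factor, differed by 4.52 ± 1.13. All 6 were called, and all but TDRD12 were named after their values were seen, so no count over germ-cell genes is drawn from them.

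BEX1, a small X-linked adaptor protein of neural tissue, and CFAP251, a component of cilia and sperm flagella, completed the largest differences. BEX1 read 4.76 and 4.74 in A549 and 11.99 and 12.99 in H1299, at least 101-fold higher. Its second tested probe differed by 0.16 and was not called. CFAP251 read 4.95 and 4.92 against 11.98 and 12.55, at least 86.1-fold higher.

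**Figure D2:**
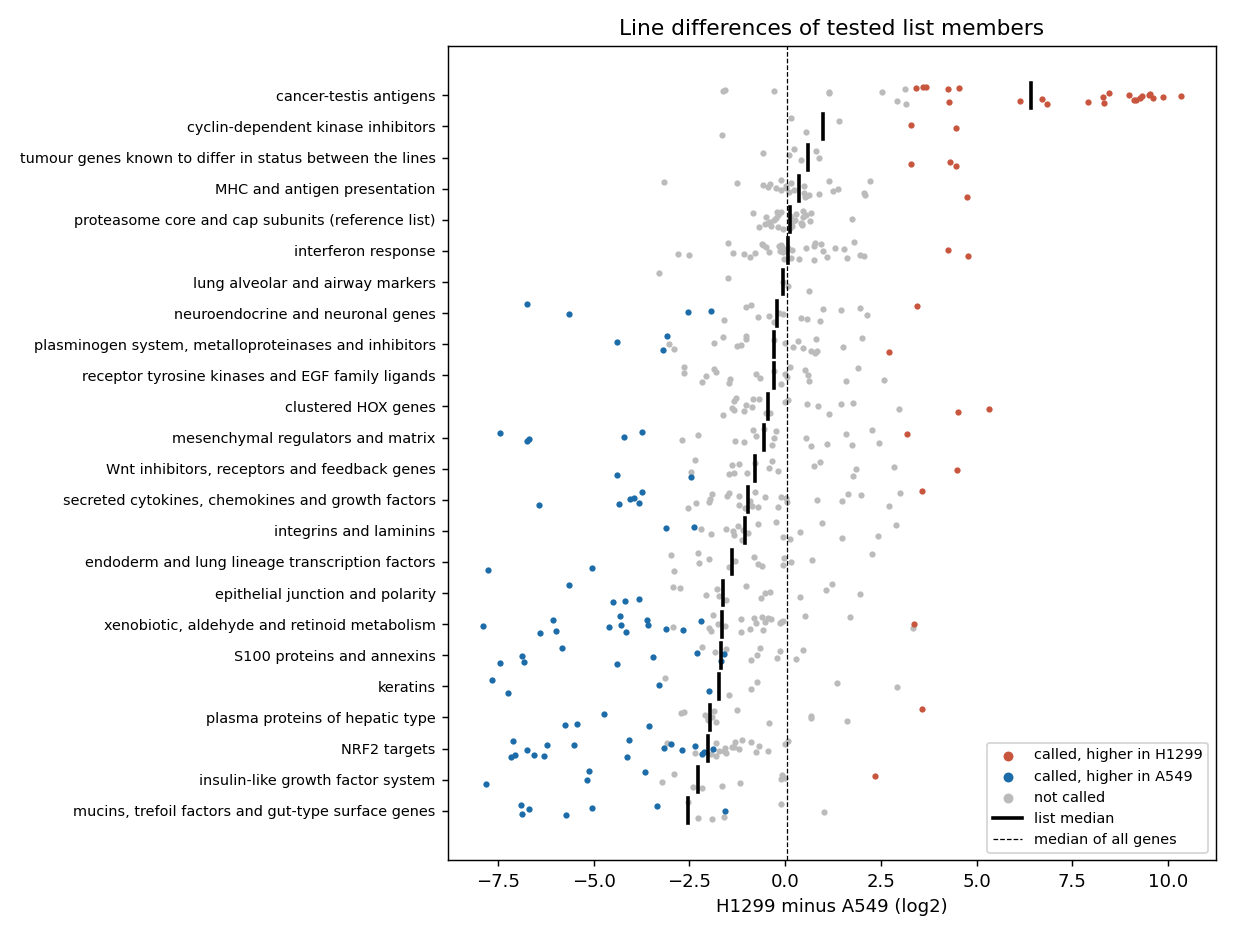
Log2 difference H1299 minus A549 (horizontal axis) of the tested members of lists with at least 5 tested genes, 1 point a gene, red for called higher in H1299, blue for called higher in A549 and grey for not called, with a black bar at the list's median and a dashed line at the median of all tested genes. Cancer-testis genes spread far to the right (median 6.42), NRF2 targets lie left (median -2.02), and the proteasome subunits stay near 0 with 0 called.

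In the other direction, NRF2 targets were higher in A549. Of 38 tested members 18 were higher in A549 and 0 in H1299, with a median log2 difference of -2.02, and 4 passed the filter through A549 alone. Its aldo-keto reductases, which reduce carbonyls and steroids, included some of the largest differences. AKR1C3 read 15.30 and 15.16 in A549 and 7.95 and 8.42 in H1299, a 132-fold difference (limma adjusted p = 4.12e-27). AKR1B10 read 14.54 and 15.08 against 8.0 and 7.30, a 143-fold difference. AKR1C2 read 15.36 and 15.40 against 8.92 and 9.23, a 78.9-fold difference. These 3 genes were detected on all 4 arrays and the lines did not overlap. AKR1C1, which is on the same list, read 6.76 and 6.36 against 4.80 and 4.69 and was not called (-1.81 ± 0.86, limma adjusted p = 0.394). AKR1B15, which is not on the list, read 13.62 and 14.32 against 6.26 and 5.37. The AKR1B and AKR1C genes have close paralogs, so signal may be shared among them.

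The same list held enzymes of aldehyde, glutathione and NADPH metabolism. ALDH3A1, an aldehyde dehydrogenase, read 14.25 and 14.45 in A549 and 6.61 and 7.85 in H1299, a 139-fold difference (limma adjusted p = 6.45e-21). GPX2 read 10.75 and 12.76 against 5.05 and 4.99, at least 62.3-fold higher in A549. In both genes every A549 array lay above every H1299 array. NQO1, a quinone reductase, differed by -2.17 ± 0.50, TXNRD1, thioredoxin reductase, by -2.11 ± 0.61, and ME1 by -3.18 ± 0.77. The exporters ABCC2 and ABCC3 differed by -5.51 ± 1.09 and -6.22 ± 0.85. GCLM, the modifier subunit of glutathione synthesis (-1.56 ± 0.67), and PRDX1, a peroxiredoxin (-0.44 ± 0.42), did not pass. PGD, the third enzyme of the pentose phosphate pathway, was called at -2.70 ± 0.68 although its control arrays hardly differed, at 11.26 in A549 and 11.28 in H1299, against 13.56 and 8.14 in the knockdowns. It was the only called gene whose difference had opposite signs in controls and knockdowns, and 1 of 2 called genes whose lines overlapped.

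Genes of xenobiotic, aldehyde and retinoid metabolism leaned to A549 as well. Of 36 tested 13 were higher in A549 and 1 in H1299, with a median of -1.66. Of the 36, 12 passed the filter through A549 alone and 3 through H1299 alone. Over the alternatives the median lay between -1.79 and -0.56. ALDH1A1, which makes retinoic acid, read 15.07 and 15.09 in A549 and 8.96 and 8.40 in H1299, an 84.5-fold difference, and its second probe was called too. CYP24A1, which inactivates vitamin D, read 12.34 and 12.83 against 4.79 and 4.60, at least 110-fold higher in A549. ALDH2, the mitochondrial aldehyde dehydrogenase, read 10.63 and 11.32 against 5.0 on both H1299 arrays. MGST2, a microsomal glutathione transferase, read 11.30 and 11.23 against 4.84 and 5.53. In each of these genes both A549 arrays lay above both H1299 arrays. The retinoic acid-degrading enzymes CYP26A1 (-3.58 ± 1.13) and CYP26B1 (-4.30 ± 1.13) were also higher in A549. UGT8, a galactosyltransferase of myelin lipids, was the member higher in H1299 (3.38 ± 1.04).

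KYNU, kynureninase of tryptophan breakdown, had one of the largest differences of any gene towards A549. It read 13.83 and 13.70 in A549 and 5.54 and 6.22 in H1299, a 234-fold difference in which 1 of the H1299 arrays was below detection (limma adjusted p = 1.16e-18). Both of its tested probes were called, at -7.88 and -6.65.

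Genes of epithelial identity were higher in A549 where they passed. Of 18 tested junction and polarity genes 4 were higher in A549 and 0 in H1299, with a median of -1.63, or -0.25 with no detection filter. CDH1, E-cadherin, read 8.80 and 9.64 in A549 and 4.81 and 4.63 in H1299, at least 10.7-fold higher (limma adjusted p = 0.00320). EPCAM, an epithelial adhesion molecule, read 9.46 and 8.98 against 5.09 and 5.0, and 2 of its 3 probes were called. SPINT2, an inhibitor of membrane serine proteases, read 12.30 and 12.61 against 6.08 and 7.55. The 3 genes were detected on both A549 arrays, and CDH1 and EPCAM on neither H1299 array. Of 10 tested keratins 4 were higher in A549 and 0 in H1299. KRT81, a hair-type keratin, read 15.16 and 15.14 against 7.41 and 7.58, a 202-fold difference (limma adjusted p = 2.40e-28). KRT7, a keratin of simple epithelia, read 12.16 and 12.999 against 5.36 and 5.33, at least 110-fold higher. KRT8 was present in both lines, at 14.03 and 13.94 against 11.54 and 12.45. KRT19 read 6.82 and 9.35 against 4.61 and 4.99, a log2 difference of -3.29. Its call was lost on all 4 arrays when the fit held no knockdown term, at the same difference. In fits that held line alone it was also lost without the A549 knockdown (-2.03), the H1299 control (-3.10) or the H1299 knockdown array (-3.48).

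Mesenchymal and matrix genes did not form the mirror image. Of 23 tested 1 was higher in H1299 and 5 in A549, with a median of -0.55. VIM, vimentin, was high in both lines, at 14.04 and 13.86 in A549 and 14.65 and 14.59 in H1299, and was not called (0.67 ± 0.42). CDH2, N-cadherin, at 11.69 to 12.78 on the 4 arrays, was not called either. The collagens COL4A1 and COL5A1 were higher in A549, COL4A1 at 12.92 and 10.64 against 5.16 and 4.90 and COL5A1 at 12.27 and 10.94 against 4.94 and 4.89. TAGLN, an actin-binding protein, differed by -4.22 ± 1.02, and its call was lost without the A549 control array (-3.73) in a fit that held line alone. LOX, a collagen cross-linking enzyme, was the member higher in H1299, at 4.69 and 4.65 in A549 and 6.25 and 9.44 in H1299. Of 20 tested integrins and laminins 2 laminin chains were higher in A549, LAMA5 (-3.12 ± 0.61) and LAMB1 (-2.38 ± 0.76). At the same difference on all 4 arrays, LAMB1 lost its call without the knockdown term, without the intensity trend, with no detection filter or with detection on all 4 arrays required, and it also lost it without background correction (-2.12). In fits that held line alone it was also lost without the A549 control (-2.44), the A549 knockdown (-2.31) or the H1299 control array (-1.67).

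Gut and liver genes were detected in A549. Of 13 tested mucin, trefoil and gut-type surface genes 7 were higher in A549 and 0 in H1299, with a median of -2.54, and 8 of the 13 passed the filter through A549 alone. With no detection filter the median was -0.24. AGR2, a disulphide isomerase of mucus-secreting cells, read 11.78 and 12.56 in A549 and 5.17 and 5.43 in H1299, at least 83.0-fold higher. Its other tested probe differed by -2.10 and was not called (limma adjusted p = 0.419). GCNT3, a mucin glycosyltransferase, read 12.57 and 12.73 against 4.87 and 6.65. TM4SF4 and CEACAM6 differed by -6.69 ± 1.10 and -5.73 ± 1.12. Among 18 tested plasma proteins of hepatic type 4 were higher in A549 and 1 in H1299. The 4 were the fibrinogen chains FGA, FGB and FGG and CPS1, the entry enzyme of the urea cycle. FGB read 11.32 and 10.28 against 5.26 and 4.85, at least 32.1-fold higher, with both probes called. FGG differed by -5.45 ± 1.13 and FGA by -3.56 ± 1.10, and FGA lost its call without the H1299 knockdown array (-3.42) in a fit that held line alone, and without background correction (-1.78). The second probes of FGG (-2.44, limma adjusted p = 0.149) and FGA (-2.09, limma adjusted p = 0.236) were not called. SAA1, an acute-phase protein, was higher in H1299 (3.57 ± 1.08).

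Of 18 tested endoderm and lung lineage transcription factors 3 were higher in A549 and 0 in H1299. FOXA2, a pioneer factor of endoderm, read 12.64 and 12.41 in A549 and 4.66 and 4.87 in H1299, at least 106-fold higher (limma adjusted p = 6.11e-12). FOXQ1, another forkhead factor, differed by -5.05 ± 1.13. FOXA1, related to FOXA2, read 9.98 and 10.21 against 6.76 and 7.62 and did not pass (limma adjusted p = 0.0831). Differentiated lung markers gave little signal. Only 5 of 25 lung alveolar and airway markers were tested and 0 were called, and none of the surfactant protein genes SFTPA1, SFTPA2, SFTPB, SFTPC and SFTPD passed the detection filter. The labelled source, bronchial epithelium, thus had few of these markers on the arrays of either line.

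S100 proteins and annexins, which bind calcium, were higher in A549 at 9 of 19 tested members and in H1299 at 0. The median was -1.67, and it lay between -1.77 and -0.71 over the alternatives. Of the 19, 4 passed the filter through A549 alone and 0 through H1299 alone. S100A6 read 13.91 and 13.59 in A549 and 6.67 and 7.18 in H1299, a 114-fold difference (limma adjusted p = 1.66e-16). S100A4 read 12.03 and 12.72 against 4.99 and 4.86, and S100P 11.80 and 11.62 against 4.56 and 5.10. The second probe of S100A4 differed by -3.23 and was not called (limma adjusted p = 0.0904). S100A10 and its partner ANXA2 were above 13 on the log2 scale in both lines and differed by -1.67 ± 0.43 and -1.60 ± 0.42.

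Secreted and signalling genes also separated the lines. Of 14 tested genes of the insulin-like growth factor system 4 were higher in A549 and 1 in H1299. IGFBP4, a binding protein, read 13.40 and 14.09 in A549 and 5.88 and 5.97 in H1299, a 221-fold difference in which 1 H1299 array was below detection. PAPPA, the protease that cleaves IGFBP4, read 11.22 and 10.89 against 5.27 and 6.57. The binding protein and its protease were thus both higher in A549. IGF2BP2, an RNA-binding protein, was the member higher in H1299 (2.35 ± 0.72). Of 32 tested cytokines and growth factors 6 were higher in A549 and 1 in H1299. GDF15, a stress cytokine, differed by -3.95 ± 1.11. It lost its call on all 4 arrays when the fit held no knockdown term and, in fits that held line alone, without the A549 knockdown (-2.81) or H1299 control array (-3.11). CXCL5, a neutrophil attractant, read 10.55 and 12.65 against 5.30 and 5.03. CXCL8, interleukin 8, differed by -4.35 ± 1.12 on its brightest probe but by -0.72 on the other. Of 19 tested Wnt pathway genes 2 were higher in A549 and 1 in H1299. LEF1, a transcription factor of the pathway, read 4.66 and 4.82 in A549 and 9.84 and 8.63 in H1299, and both probes were called. SFRP1, a secreted inhibitor, differed by -4.39 ± 1.12. RSPO3, which amplifies Wnt signals and is not on the list, read 12.57 and 12.42 against 4.95 and 4.95, at least 104-fold higher in A549.

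Other lists are read here beside the 4.16% of all tested genes that were called. The neuroendocrine and plasminogen lists lay above that share, and the antigen presentation and interferon lists near it. Of 20 tested neuroendocrine and neuronal genes 4 were higher in A549 and 1 in H1299, among them the adhesion molecule NRCAM, at 12.23 and 12.27 against 5.12 and 5.87, and the secreted peptide precursor VGF, higher in H1299 (3.45 ± 0.76). Of 23 tested proteases and inhibitors of the plasminogen system 3 were higher in A549 and 1 in H1299. Of 26 tested antigen presentation genes 1 was called, HLA-B, at 5.55 and 5.96 in A549 and 10.51 and 10.49 in H1299, while B2M, its light chain, read 11.91 to 12.95 and was not called. Of 37 tested interferon response genes 2 were higher in H1299, IFITM3 (4.77 ± 0.84) and the RNA sensor IFIH1 (4.25 ± 1.13). Of 22 tested HOX genes 2 were higher in H1299, HOXB2 (5.34 ± 1.01) and HOXA9 (4.53 ± 1.06). The HOX median lay the other way, at -0.45, and 4 of the 22 passed the filter through A549 alone and 1 through H1299 alone. No receptor tyrosine kinase or EGF family ligand was called among 21 tested. EGFR, at 9.96 to 10.43 on the 4 arrays, differed by -0.10 ± 0.78. The proteasome subunits, used as a reference list, had 0 of 30 called and a median of 0.13. The 1 tested chorionic gonadotropin gene was not called.

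Tumour genes, listed as ones whose status may differ between the 2 lines, were read next. Whether the lines do differ in the status of each was not checked. Of 12 such genes 10 were tested and 3 were called, all higher in H1299. MTAP, an enzyme of methionine salvage, read 5.24 and 5.72 in A549 and 9.87 and 9.70 in H1299, a 14.5-fold difference with 1 A549 array below detection (limma adjusted p = 0.00636). CDKN2A, which encodes the inhibitor p16 and ARF, read 5.47 and 5.01 against 9.40 and 10.01, at least 14.7-fold higher. CDKN2B, a related inhibitor, read 4.98 and 4.79 against 7.66 and 8.68, at least 5.06-fold higher (limma adjusted p = 0.0479). In fits that held line alone the CDKN2B call was lost without the A549 control (3.38) or the A549 knockdown array (3.19), and on all 4 arrays it was lost without background correction (1.54). With the deposited lumi values none of the 3 genes passed, at differences of 1.67 for MTAP, 1.63 for CDKN2A and 0.72 for CDKN2B. Of the other CDKN2A probes 1 was detected in the H1299 control alone and 1 on no array. The other CDKN2B probes likewise were detected in the H1299 control alone (1 probe) and on no array (1 probe). The 3 genes are neighbours on chromosome 9. The tested protein-coding genes on either side, from MLLT3 to IFNE and from DMRTA1 to IFT74, were not called, and their log2 differences lay between -2.36 and 0.50. FOCAD, for example, read 8.76 and 8.79 in A549 and 8.83 and 8.38 in H1299. Among the tested genes of this stretch, both A549 arrays lay below both H1299 arrays at MTAP, CDKN2A and CDKN2B alone. These 2 inhibitors were also the called members among 6 tested cyclin-dependent kinase inhibitors.

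**Figure D3:**
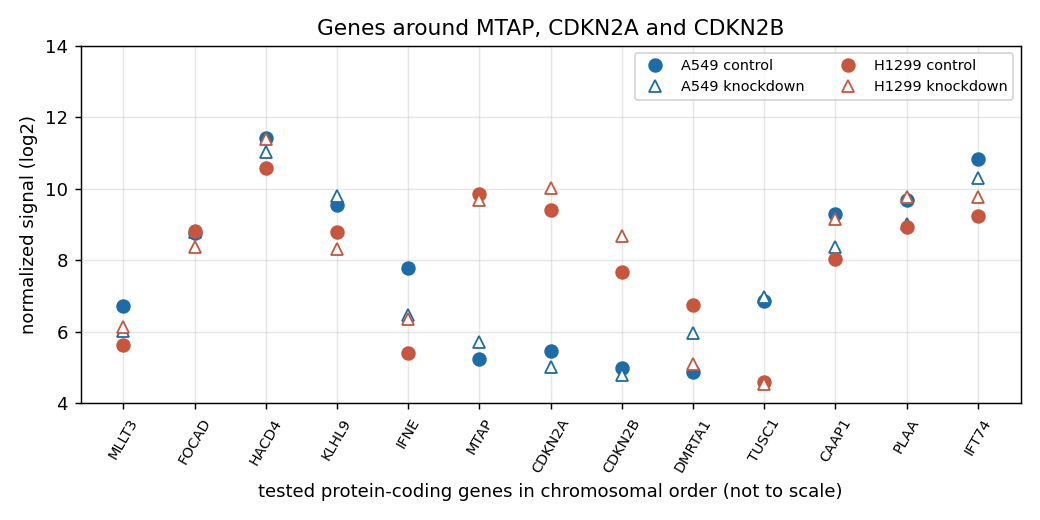
Normalized log2 signal (vertical axis) on the 4 arrays for 13 tested protein-coding genes in chromosomal order (horizontal axis, not to scale), circles for controls and triangles for knockdowns, A549 blue and H1299 red. The A549 arrays fall below 6 at MTAP, CDKN2A and CDKN2B, where H1299 reads 7.66 to 10.01. They also do so at DMRTA1, with 4.87 and 5.96, where H1299 reads 6.74 and 5.09. Genes such as FOCAD and PLAA overlap between the lines.

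The other tumour genes did not pass. SMARCA4, a remodelling ATPase, read 8.47 and 8.27 in A549 and 8.50 and 8.46 in H1299 (0.11 ± 1.04). KEAP1, MYC, NRAS, RB1 and SMARCA2 were not called either, and with SEs of 0.62 to 1.08 differences of the size seen could not be separated from the spread. CDKN1A, another cyclin-dependent kinase inhibitor, read 12.44 and 11.96 against 9.33 and 11.77 and did not pass (limma adjusted p = 0.173).

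Line differences were read in controls and in knockdowns separately, 1 array a side and so without a test. The sign was the same in both for 539 of 540 called genes, against 49.0% of all tested genes. The call uses the mean of both differences, so this share is partly fixed by the call. Among called genes the median ratio of the control difference to the knockdown difference was 1.05, and 306 had the larger difference in the controls. The contrast that sets the A549 control and H1299 knockdown arrays against the others reached 1 or more on the log2 scale in 68 called genes.

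**Figure D4:**
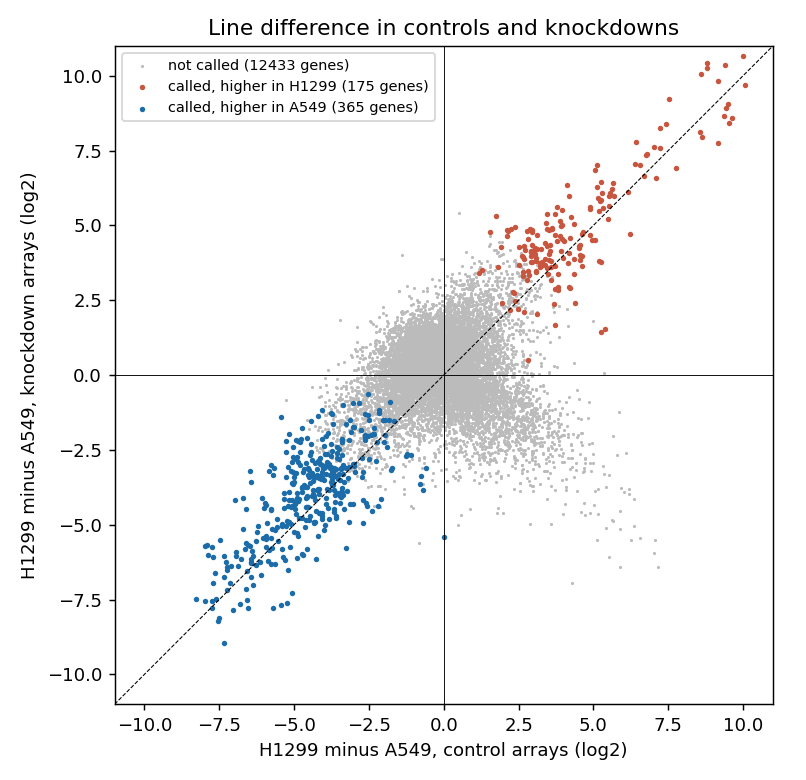
Log2 difference H1299 minus A549 in the controls (horizontal axis) against the same in the knockdowns (vertical axis), 1 point a tested gene, red and blue for called genes and grey for the rest, with the line of equality dashed. Called genes lie along the dashed line in the lower left and upper right, and a grey tail runs to the lower right, where the A549 control and H1299 knockdown arrays are both low.

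Probes of 1 gene gave a separate check of the line difference. Of 2847 genes with at least 2 tested probes, 75.9% had all probes of 1 sign. Of the called genes with at least 2 probes, 47 were higher in H1299 and 110 in A549, and every probe had the sign of the call in all of these. Every probe passed the test in 23 and 42 of them, respectively. No gene had probes called in opposite directions. The remaining 383 called genes rested on 1 tested probe. Over the 2 brightest probes of each gene, the line difference correlated at r = 0.83 (rho = 0.76), the knockdown difference at 0.27 and the opposing contrast at 0.35, as a description over 2847 pairs that share their arrays. GAGE1 showed agreement at high signal, with 3 probes at 6.87 to 9.35. The second probes of BEX1 (0.16) and TDRD12 (0.69) were not called, nor were those of NQO1 (-1.89), TXNRD1 (-0.64), CYP26A1 (-2.34) and MAGEA6 (3.46).

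**Figure D5:**
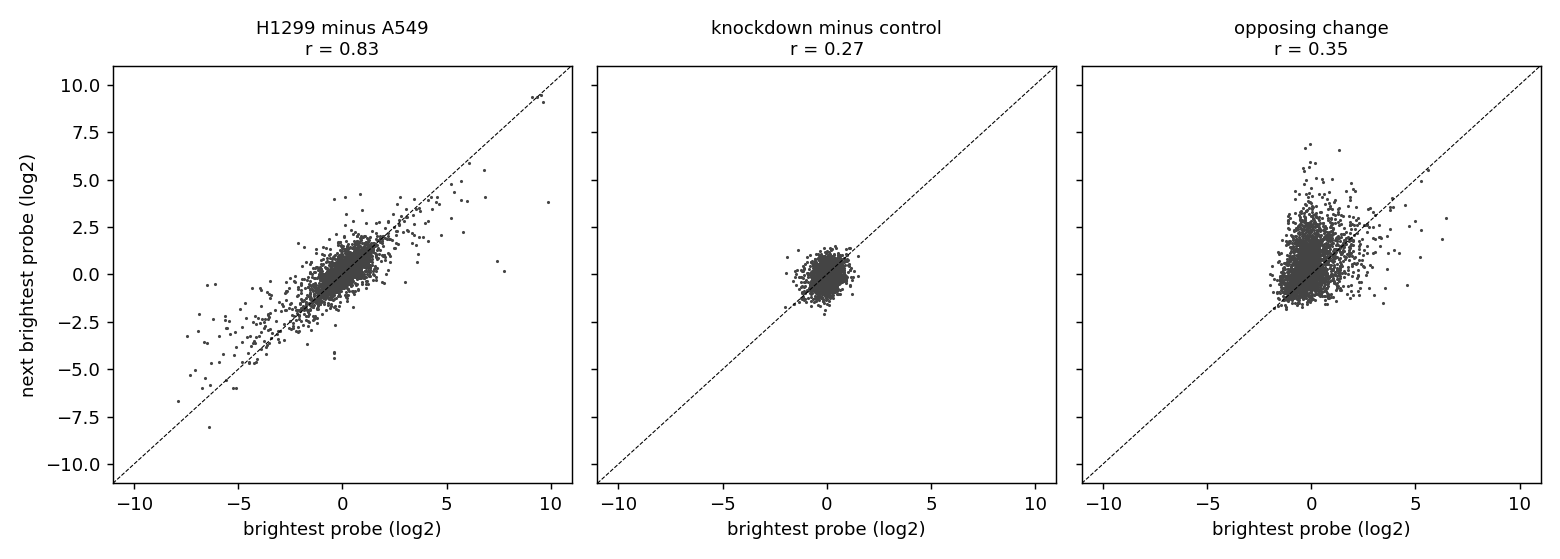
Log2 differences of the brightest tested probe (horizontal axis) and the next brightest (vertical axis) of each of 2847 genes, for H1299 minus A549, for knockdown minus control and for the opposing contrast, in which the A549 knockdown and H1299 control arrays are set against the other 2. The points stretch along the dashed line of equality in the first panel (r = 0.83) and less so in the others (r = 0.27 and 0.35).

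The places of called genes on the chromosomes were read without a test. Of 10905 tested genes placed on the RefSeq map 497 were called, and of 10880 adjacent pairs 67 had both genes called, 62 of them in the same direction and 5 in opposite directions. Runs of at least 3 included 10 GAGE genes, the CSAG and MAGEA genes from CSAG2 to MAGEA6, S100A6 with S100A4, S100A3 and S100A16, AKR1C2 to AKR1C4, AKR1B1 with AKR1B10 and AKR1B15, the 3 fibrinogen genes, TM4SF18 with TM4SF1 and TM4SF4, and PTGS2 with PLA2G4A and RGS2. Most of these are families of related genes, in which probes can share signal. MTAP with CDKN2A and CDKN2B was a run in which MTAP belongs to another family.

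At the edge of the call, NID2, a basement membrane protein, passed at a limma adjusted p of 0.0493 and RERG, a growth inhibitor of the RAS family, at 0.0494. C5, a complement component, missed it at 0.0513 with a log2 difference of -2.72 ± 0.88. Differences of about 3 on the log2 scale were thus near the limit for genes of moderate signal, while the smallest called difference at a probe was 1.33.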

How the data were processed

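Transcripts were measured on 4 Illumina bead arrays, 1 per line and treatment, all on 1 slide, so no batch could be split. The main table gives each probe's average bead intensity with no background correction or normalization, per the file headers. It also gives the deposited detection p-value of each probe. A second deposited table holds log2-like values that the authors made with lumi, per the submitters' processing notes. Its transformation is not given in the sources used here. Extraction text in the labels describes DNA although the molecule is total RNA. The authors' intensity values were background-corrected, given an offset of 16, quantile normalized and log2 transformed by neqc (limma 3.58.1, R 4.3.3), its negative controls being inferred from detection.

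limma fitted line and knockdown with an intensity trend and 1 residual degree of freedom. Prior degrees of freedom came out infinite, and each SE therefore follows the trend over all probes and not the gene's own spread. The number of arrays limits precision. Undetected arrays were held at the lowest detected value of that array for folds. Of 31397 symbols 17761 were current, 3283 were renamed through RefSeq and 10353 were kept, and 3270 probes had none. Named genes were the 20 largest called differences each way with separate arrays, up to 4 called members of each list, the tumour genes and TET1. A few items are not reported or plotted here, though counts and medians include them. Y-linked genes, XIST and provisional symbols were left out. The members, lists and rule were chosen with earlier results of these data known. Other genes are examples picked from the lists or after their values were seen. Promoters were aligned with Biopython 1.88 and figures drawn with matplotlib 3.10.9. Alternatives were the lumi values, no background correction, median centring, other filters, models and priors, and leaving out each array.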

Additional observations from a re-analysis of the deposited data

Results flagged for a closer look

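For 6 genes and 6 list medians the difference H1299 minus A549 had opposite signs in the controls and in the knockdowns. With 1 array a side, the change of the difference between the treatments was not tested. By arithmetic this change is, on another scale, the contrast that sets the A549 control and H1299 knockdown arrays against the other 2. A knockdown response that differs between the lines and a difference between arrays cannot be told apart in it. On the log2 scale the difference in the controls was 1.23 for KEAP1, the NRF2 repressor, against -0.41 in the knockdowns. It was 1.47 for MYC against -0.98, 2.41 for NRAS against -0.67, and 2.98 for RB1 against -1.37. SMARCA2 went the other way, at -1.19 in the controls and 0.03 in the knockdowns, as did TET1 at -0.35 and 0.71. None of these genes was called between the lines.

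The list medians were -0.82 in the controls and 0.21 in the knockdowns for lung alveolar and airway markers, -0.73 and 0.27 for neuroendocrine and neuronal genes, and -0.36 and 0.08 for HOX genes. They were -0.38 and 1.07 for interferon response genes, -0.83 and 1.07 for leukocyte markers, and -3.45 and 1.83 for chorionic gonadotropin subunits, where 1 gene was tested.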

How the results depend on the processing

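All 540 called genes kept the sign of their difference with the lumi values, without background correction and with median centring, but the number called moved. The other alternatives on all 4 arrays reused the main normalized values, so the sign at a probe was fixed in advance. With the deposited lumi values 258 probes passed (78 higher in H1299 and 180 in A549), 231 genes (68 and 163), 78 list members against 128, and 568 genes lay 2-fold apart (196 and 372). Median centring left 32 probes (21 and 11), 27 genes (16 and 11), 21 list members and 26 of the 95 called named genes, and turned the share of called probes higher in H1299 from 33.5% to 65.6%. There the prior degrees of freedom were 4.03 and not infinite. Detection on all 4 arrays, which tests fewer genes, left 172 probes (41 and 131), 155 genes (37 and 118), 44 list members, 25 named genes and 641 genes 2-fold apart (275 and 366), and 79.0% of genes had all probes of 1 sign. Without background correction 793 genes were 2-fold apart, 290 of them higher in H1299. At 4-fold 501 genes were apart. Taking 1 array of each line, alternatives chosen after seeing the data, gave 3427 genes 2-fold apart for the A549 knockdown and H1299 control and 2980 for the A549 control and H1299 knockdown, since fewer arrays have to separate.

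Leaving out 1 array in turn, without the knockdown term, gave 628 to 803 called probes (146 to 306 higher in H1299, 389 to 596 in A549), 518 to 666 genes (124 to 236 and 323 to 468), 114 to 141 list members and 88 to 92 named genes. Of the 540 genes, 412 to 460 kept their call. Without the A549 control or the H1299 knockdown array 539 of the 540 kept their sign. Leaving out 1 array turned the sign of the uncalled KEAP1 (lowest value -0.09), MYC (-0.70), NRAS (-0.32), RB1 (-0.57) and TET1 (-0.81), and the lumi values turned TET1 too. The main model compares the lines within each treatment, and without its knockdown term 453 of the 540 kept their call. No paired analysis was possible because the labels number no replicates, beyond that term. With no detection filter list medians shrank to 0.39 for cancer-testis genes, -0.24 for mucin and gut-type genes, -0.25 for epithelial junctions, -0.27 for hepatic plasma proteins, -0.35 for keratins and -0.26 for endoderm and lung factors. Medians of the HOX, interferon, plasminogen system, lung, neuroendocrine, gonadotropin, proteasome and other-cell lists changed sign under at least 1 alternative. Genes near background have only bounds, since signal over background limits them.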
